A study of Mus musculus with 12 samples.

Results

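The ETS family of transcription factors was examined through the open chromatin of 10 of its genes, Ets1, Ets2, Etv1, Etv4, Etv5, Elk1, Gabpa, Erg, Fli1 and Elf2. Peaks of 12 ATAC-seq libraries were merged wherever they overlapped by at least 1 bp, and every merged region in the body of one of these genes, or within 10 kb upstream of an annotated transcription start site (TSS), was taken. This gave 150 regions of the 263785 in the whole data set. The rule lists the 10 genes by name. Regions are numbered along the chromosome within each gene, so that Ets1 region 9 is the ninth from the lower coordinate.

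Chromatin was profiled in primary cortical neurons from embryonic day 18 C57BL/6 WT mice, with 3 replicate libraries in each of 4 groups, all labelled batch 1. PBS neurons received vehicle for 7 days. PFF neurons received pre-formed fibrils of human alpha-synuclein, which seed aggregation of the neuronal protein, for 7 days. PFF+MLi-2 neurons received the same fibrils for 7 days, and for the last 5 of them the LRRK2 kinase inhibitor MLi-2, and PFF+Rab5 ASO neurons received the fibrils for 7 days, joined for the last 3 by an antisense oligonucleotide treatment (ASO) targeting Rab5, a GTPase of early endosomes. No library with MLi-2 or the ASO but without PFF, and none with a control oligonucleotide, was analysed here. The comparisons ask which accessible positions at the ETS genes differ with PFF, and where the 2 added treatments stand against PFF and against PBS.

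ETS factors share a winged helix-turn-helix DNA-binding domain that reads a GGAA core, and the flanking bases and partner proteins set which member binds where. Many are end points of MAP kinase signalling. Elk1 is a ternary complex factor that joins SRF on immediate early genes, Ets1 and Ets2 are phosphorylated in response to growth factors, and Etv1, Etv4 and Etv5 form the PEA3 group that responds to fibroblast growth factors and neurotrophins. Gabpa carries the DNA-binding subunit of GA-binding protein, a regulator of nuclear genes for mitochondria. Erg and Fli1 are best known in endothelial and blood cells, and Elf2 belongs to the Elf group.

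The sequences below are the stretches on which the comparisons turn, read from GRCm38 (RefSeq assembly GRCm38.p6) and written from the plus strand, up to 100 bases on each side of the highest summit and no further than the region itself. Capitals mark matches on either strand to CCGGAA (an ETS site), TGANTCA (AP-1), TGACGTCA (CRE) or CACGTG (an E-box). No printed stretch held more than 1 match.
Ets1 region 21 (chr9:32735790-32735989): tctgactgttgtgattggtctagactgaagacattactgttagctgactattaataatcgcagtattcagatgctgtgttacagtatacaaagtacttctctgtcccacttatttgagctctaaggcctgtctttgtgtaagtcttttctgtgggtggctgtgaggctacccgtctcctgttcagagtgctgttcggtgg
Ets1 region 9 (chr9:32675929-32676083): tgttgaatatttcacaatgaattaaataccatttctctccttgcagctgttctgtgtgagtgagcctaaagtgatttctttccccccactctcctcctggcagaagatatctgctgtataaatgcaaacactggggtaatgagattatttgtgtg
Etv5 region 8 (chr16:22408727-22408926): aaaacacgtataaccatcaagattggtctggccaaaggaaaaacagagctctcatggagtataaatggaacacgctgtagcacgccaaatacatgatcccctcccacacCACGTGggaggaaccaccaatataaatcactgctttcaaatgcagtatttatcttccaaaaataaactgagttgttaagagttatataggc
Etv5 region 12 (chr16:22422361-22422560): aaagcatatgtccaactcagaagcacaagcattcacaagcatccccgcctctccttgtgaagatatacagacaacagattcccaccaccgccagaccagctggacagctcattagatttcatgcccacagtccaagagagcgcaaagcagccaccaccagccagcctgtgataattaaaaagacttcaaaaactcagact
Etv5 region 16 (chr16:22438530-22438705): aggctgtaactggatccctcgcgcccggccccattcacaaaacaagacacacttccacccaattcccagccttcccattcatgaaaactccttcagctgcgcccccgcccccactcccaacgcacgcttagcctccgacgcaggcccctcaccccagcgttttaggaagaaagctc
Elf2 region 13 (chr3:51333372-51333571): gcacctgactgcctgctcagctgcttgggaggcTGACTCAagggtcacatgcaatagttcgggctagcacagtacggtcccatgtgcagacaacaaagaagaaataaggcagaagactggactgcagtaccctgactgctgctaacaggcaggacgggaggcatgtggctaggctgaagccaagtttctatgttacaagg
Elf2 region 4 (chr3:51295304-51295503): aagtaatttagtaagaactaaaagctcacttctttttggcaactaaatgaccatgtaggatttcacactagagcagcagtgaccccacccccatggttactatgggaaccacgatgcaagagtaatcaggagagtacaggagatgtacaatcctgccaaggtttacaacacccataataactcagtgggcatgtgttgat
Etv1 region 5 (chr12:38788750-38788908): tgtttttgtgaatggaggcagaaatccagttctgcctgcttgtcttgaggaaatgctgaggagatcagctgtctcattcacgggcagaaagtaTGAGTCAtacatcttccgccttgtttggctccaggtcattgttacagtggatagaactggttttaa
Etv1 region 8 (chr12:38833594-38833770): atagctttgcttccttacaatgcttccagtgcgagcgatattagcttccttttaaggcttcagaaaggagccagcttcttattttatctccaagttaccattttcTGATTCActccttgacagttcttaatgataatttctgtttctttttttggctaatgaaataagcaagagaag
Erg region 26 (chr16:95463982-95464134): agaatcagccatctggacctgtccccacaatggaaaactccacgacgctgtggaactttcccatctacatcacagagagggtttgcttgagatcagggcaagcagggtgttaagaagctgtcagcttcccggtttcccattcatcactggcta
Fli1 region 12 (chr9:32489449-32489580): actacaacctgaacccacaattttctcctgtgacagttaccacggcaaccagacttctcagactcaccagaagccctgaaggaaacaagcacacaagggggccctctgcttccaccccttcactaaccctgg

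The ETS motif itself was searched within 100 bp of the summit of every region, a window that can run past the edges of a narrow peak, since ETS factors can bind the promoters of their own family. CCGGAA was present at 4 of the 31 member regions within 1 kb of a TSS (12.9%), against 11.4% of all regions near a protein-coding TSS. It was present at 0 of the 119 member regions farther away, against 2.26% of the regions of all protein-coding gene windows that lie away from a TSS. The 4 sites are shown with 10 bases on each side, on the strand that reads CCGGAA in capitals.
Etv1 region 2 (chr12:38779512-38779537, plus strand): aacaaaagctCCGGAAacggcgggga
Gabpa region 1 (chr16:84835022-84835047, minus strand): gctgagggacCCGGAAgcacttaccc
Fli1 region 19 (chr9:32541106-32541131, minus strand): cgccggggtcCCGGAAgacgtggccg
Elf2 region 15 (chr3:51340247-51340272, plus strand): gccccagcctCCGGAAagcccctccg
The Gabpa and Elf2 sites lay in regions called in every library, and the Etv1 site in a region with a peak in 11. The Fli1 match stood 96 bp from the summit of a 65 bp region called in 1 library, outside that region's own bounds. AP-1 matches occurred at 18 of 150 member regions (12%, against 10.8% of all regions), E-box matches at 7 (4.67% against 3.52%) and a CRE match at 1 (0.667% against 0.405%). Among the regions printed above, Etv1 regions 5 and 8 and Elf2 region 13 held an AP-1 match, and Etv5 region 8 held an E-box match. In the RefSeq promoter table, which runs from 250 bases before to 50 bases after a start, 7 of the 10 genes were matched with 12 promoters. CCGGAA was in 1 of these, that of Gabpa (8.33%), against 14.9% of all 32851 promoters. These matches are descriptions of the sequence, and binding was not measured.

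The libraries held 137417 to 184717 peaks each, with a median summit pileup of 16 to 18 fragments, so that a weak peak rests on few fragments. Total read numbers were not used. Relative depth was the background that the peak caller assigned, divided by the library's shortest peak width and scaled to the mean over libraries. Depth and peak width moved with the groups. By this estimate the PFF+Rab5 ASO libraries were the deepest, at a relative depth of 1.22 ± 0.149 (SD, n = 3) and with a median peak width of 118 bp. Their shortest peaks were 53 to 59 bp, against 62 to 66 bp in the other libraries. By background alone, ASO replicate 2 (1.82) lay below PFF+MLi-2 replicates 1 (1.88) and 3 (1.90). The PFF libraries had the lowest mean depth, 0.843 ± 0.0728, and overlapped PBS in depth. Their median peak width was the highest of the group means, at 138 bp. PBS stood at 0.939 ± 0.0332 and 131 bp, and PFF+MLi-2 at 0.999 ± 0.0374 and 132 bp. Their part in the differences reported for the ASO group was not tested. The neuronal label was met by a peak within 1 kb of a TSS of 8 of 8 neuronal markers in every library. Endothelial markers had such a peak for 2 to 3 of 7 genes, with Pecam1, Cdh5, Tek and Emcn at 0 in all libraries, and microglial markers for 0 to 3 of 6, with Cx3cr1, Aif1 and Spi1 at 0. Astrocyte (5 of 5), oligodendrocyte lineage (4 to 5 of 5) and progenitor (5 of 5) markers also had peaks. ATAC-seq of a culture cannot tell a share of cells from the accessibility within each cell.

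The 150 ETS gene regions comprised 31 near a TSS and 119 farther away, with a median width of 157.5 bp. A peak was present in all 12 libraries for 45 regions (30%) and in 1 library alone for 38 (25.3%), close to the 29.6% and 25.8% over the 160280 regions of all protein-coding genes. Erg had the most regions, 41 over a body of 227 kb, of which 6 were in all libraries. Ets1 had 25 (10 in all libraries), Etv5 20 (10), Fli1 20 (3), Elf2 18 (7), Etv1 10 (2), Etv4 7 (3), Ets2 6 (2), Elk1 2 (1) and Gabpa 1 (1). Other genes overlapped a few of them or had a TSS within 1 kb. Both Elk1 regions lie in the body of Uxt, and the Gabpa region also lies within 1 kb of a TSS of Atp5j, so their peaks cannot be assigned to 1 gene. The same holds for Elf2 region 2, which also lies within 1 kb of a TSS of 4930577N17Rik.

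Peak height was read as the percentile of fold enrichment among all peaks of the same library, so that a high value marks one of that library's tallest peaks over background. Lists differed in length, so a percentile also shifts with the number of weak peaks that a library called. Percentiles and the scores tested below can order libraries differently. At Ets1 region 6, PBS replicate 1 was above replicate 2 in percentile (62.4 and 53.2) and below it in score (-0.77 and -0.71). By percentile the promoters of 8 of the 10 genes were at 78.4 or above in every library. The highest region near a TSS stood at 95.9 to 99.2 for Elk1, the SRF partner, and at 93.7 to 97.6 for Ets1 region 14, which covers a TSS inside the gene. Elf2 region 2 ran from 92.2 to 96.0 and Gabpa from 89.9 to 93.7. The PEA3 genes followed, with Etv1 region 1 at 85.1 to 95.5, Etv4 region 6 at 83.1 to 91.4 and Etv5 region 19 at 83.0 to 91.6, and their ranges overlapped one another. Ets2 region 3 ran from 78.4 to 87.2. The lowest values were those of the 2 endothelial and blood factors, but not in every library. Erg region 40 ran from 54.6 to 86.5, overlapping Ets2 and the PEA3 genes, and Fli1 had no peak within 1 kb of a TSS in 3 libraries, its highest such region being called in 7 libraries at 10.8 to 58.2.

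**Figure D1:**
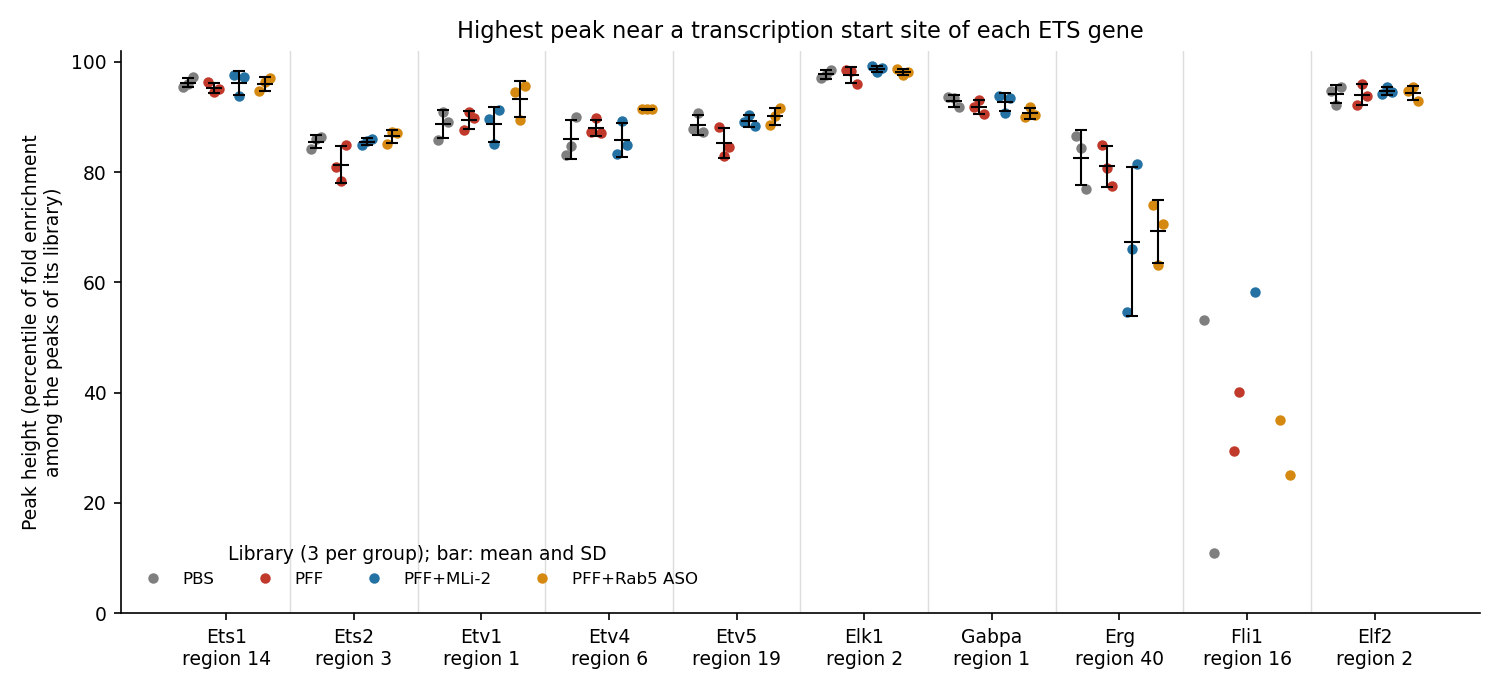
Height percentile (vertical axis, percent, within each library) of the highest region near a TSS of each of the 10 ETS genes (horizontal axis) in the 12 libraries, coloured by group. Points are libraries, and black bars give the mean and SD of groups with a peak in all 3. Elk1, Ets1 and Elf2 sit at 92.2 or above in every library, Erg spreads from 54.6 to 86.5 and Fli1 has a point in only 7 libraries.

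Of these highest regions, 9 were called in every library and 0 of them passed the limma test in any of the 5 comparisons, where 0% of all regions passed in 3 of them, 3.83% with the ASO against PFF and 1.63% with the ASO against PBS. Of all 16 near-TSS regions called in every library, 1 passed in 1 comparison, Etv5 region 16, described with the ASO results. The test covered the 72465 regions that every library had called, using normal scores of the height rank, and adjusted over all of them. The effects at Gabpa region 1 were between -0.25 and 0.15 (in SD units of the score), those at Elf2 region 2 between -0.04 and 0.13, and those at Ets1 region 14 between -0.15 and 0.21, with SEs of 0.19 to 0.23. Erg region 40 stood at 86.5, 84.4 and 77.0 in PBS and 84.9, 80.7 and 77.5 in PFF. It was at 54.6, 66.0 and 81.4 in PFF+MLi-2 and at 74.1, 63.1 and 70.5 in PFF+Rab5 ASO. The ASO libraries lay below all PBS and PFF libraries, but the difference from PBS of -0.70 ± 0.23 (SE) had an adjusted p of 0.133 by limma.

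PFF and PBS were compared first. Of the 150 regions, 130 were called at all in these 6 libraries. One was gained, meaning a peak in 3 of 3 PFF and 0 of 3 PBS libraries (0.769%, where 1.10% of all regions were gained), and 1 was lost in the same sense (0.769%, against 0.405%). The gained region was Erg region 26 (chr16:95463982-95464134, GRCm38), in an intron 4634 bp upstream of the nearest annotated Erg TSS. Its peak was called in the 3 PFF libraries, at percentiles 10.8, 8.5 and 30.6 and with summit pileups of 11, 11 and 13 fragments, and in no library of the other 3 groups. These are weak peaks, and the call was kept in 0 of 3 alternatives that took equal numbers of top peaks, a stricter q or coverage of 50% of the region.

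The lost region was Ets1 region 9 (chr9:32675921-32676083), in an intron 19939 bp upstream of the nearest TSS and next to region 10, which had a peak in all 12 libraries at 83.9 to 98.5. Its percentiles were 34.9, 32.9 and 21.2 in PBS, with 14, 13 and 11 fragments. No PFF library had a peak there. One PFF+MLi-2 library did, at 35.2 (14 fragments), and so did all 3 PFF+Rab5 ASO libraries, at 33.5, 57.2 and 35.1 with 14, 15 and 14 fragments. The region was called in every PBS and every ASO library and in no PFF library, and the loss was kept in 1 of the 3 alternatives, that with equal numbers of top peaks. With 3 libraries against 3 an exact test of 1 region cannot give a p under 0.1, so no p is attached to these calls.

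**Figure D2:**
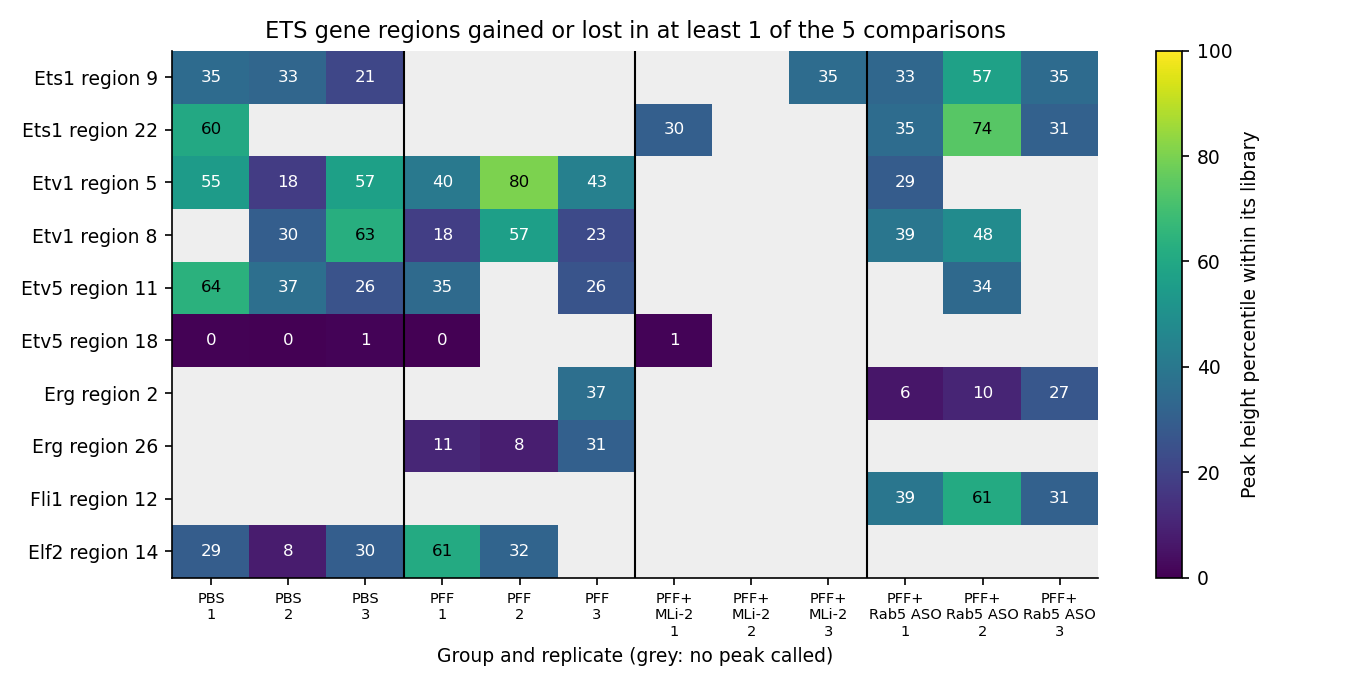
The 10 ETS gene regions gained or lost in at least 1 of the 5 comparisons (rows) in each of the 12 libraries (columns, by group and replicate). Colour and number give the height percentile of the peak within its library, and grey marks a library without a peak. Erg region 26 is called in the 3 PFF libraries and Fli1 region 12 in the 3 PFF+Rab5 ASO libraries, and in no others.

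In peak height, 0 of the 45 ETS gene regions passed the limma test for PFF vs PBS (0% of all 72465 regions tested passed), and 7 had an unadjusted p under 0.05 (15.6%), where 9.72% of all regions did. The median difference over the 45 was -0.04, beside -0.02 over all regions, and single regions ran from -0.68 to 0.86. The region with the largest difference was Ets1 region 21 (chr9:32735686-32736085), in an intron 39302 bp downstream of the nearest TSS. It stood at 69.2, 40.5 and 57.0 in PBS and at 73.7, 83.3 and 79.4 in PFF. All PFF libraries were above all PBS libraries, by 0.86 ± 0.25 (SE, limma adjusted p = 0.311). Etv5 region 3, in an intron, was also higher in every PFF library (81.3, 88.8 and 80.3) than in any PBS library (60.4, 63.8 and 78.5), by 0.70 ± 0.28 (adjusted p = 0.460 by limma). Ets1 region 5 went the other way, from 57.2, 58.1 and 64.7 in PBS to 33.9, 44.97 and 41.1 in PFF, a difference of -0.68 ± 0.23 (limma adjusted p = 0.391). None of these 3 differences passed the adjustment.

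**Figure D3:**
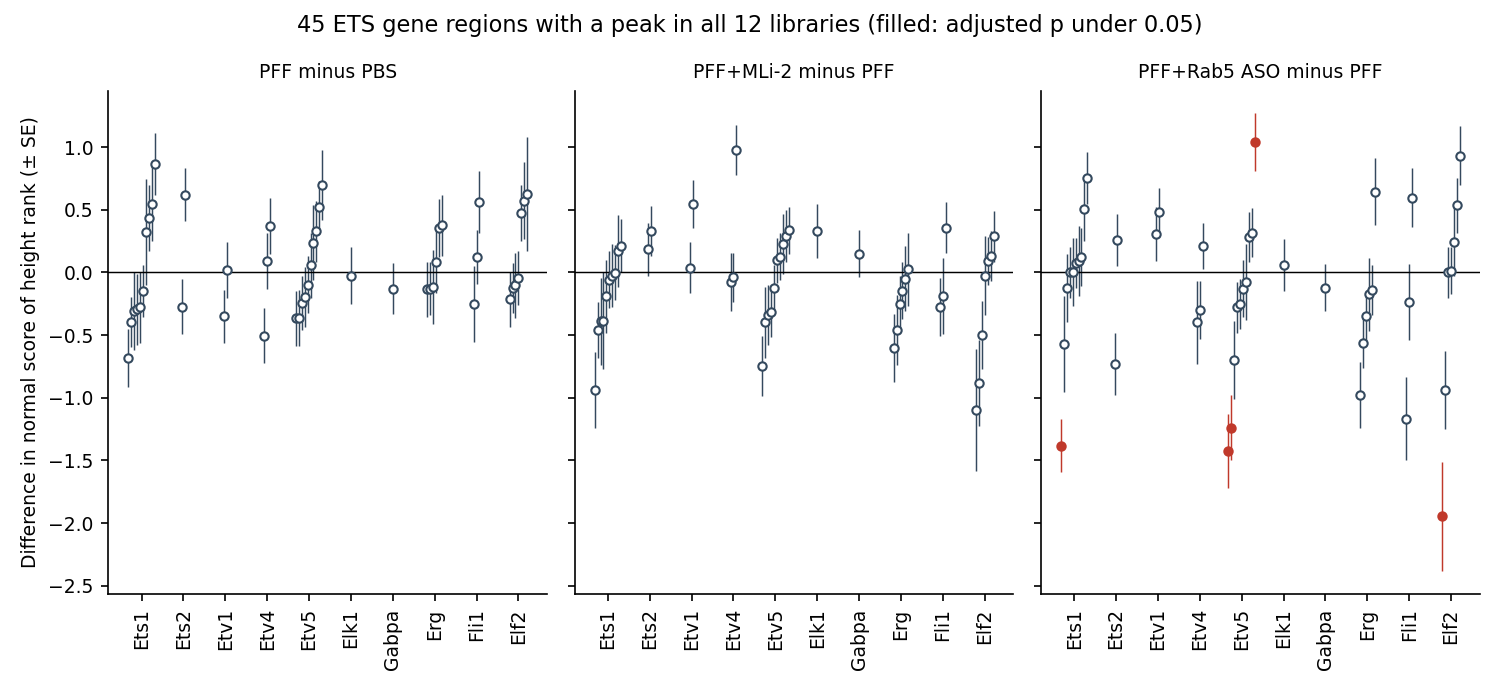
Difference in the normal score of height rank (vertical axis, SD units, bars ± SE) for the 45 ETS gene regions called in every library, grouped by gene (horizontal axis), in 3 comparisons (panels). Filled points have a limma adjusted p under 0.05, and these are 5 regions of PFF+Rab5 ASO minus PFF, from -1.95 to 1.04. No point of the other panels is filled.

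PFF+MLi-2 was compared with PFF next. Of 124 regions called in these 6 libraries, 0 were gained (0.374% of all regions were) and 3 were lost (2.42%, against 1.64%). Besides Erg region 26, both others were in introns of Etv1, a factor of the PEA3 group. Etv1 region 5 (chr12:38788659-38788908) had a peak in the 3 PBS libraries at 54.8, 17.9 and 57.0 and in the 3 PFF libraries at 40.4, 80.1 and 43.4. No PFF+MLi-2 library had it, and 1 of 3 PFF+Rab5 ASO libraries did, at 29.1. This region was lost against PBS as well as against PFF, and the loss against PFF was kept with equal numbers of top peaks and at the stricter q, but not when peaks had to cover 50% of the region. Etv1 region 8 (chr12:38833594-38833857) had peaks in 2 PBS libraries (29.9 and 62.8), in all 3 PFF libraries (18.5, 56.6 and 22.6), in no PFF+MLi-2 library and in 2 PFF+Rab5 ASO libraries (39.4 and 48.3), and its call was kept in 0 of the 3 alternatives. Both stretches carry the AP-1 match shown above, TGAGTCA in region 5 and TGATTCA in region 8. Between them lies the intronic Etv1 region 6, named here after its values were seen. It also held an AP-1 match and had a peak in 2 PBS libraries, in 1 with PFF, in 3 with added MLi-2 and in 3 with the ASO, so not every intronic Etv1 peak was missing with MLi-2.

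No ETS gene region passed the limma test in height for PFF+MLi-2 vs PFF (0 of 45, 0% of all regions), and 5 had an unadjusted p under 0.05 (11.1%, against 11.4% of all). The largest difference without overlap was that of Etv4 region 3 (chr11:101783165-101783435), 953 bp downstream of a TSS, which had a limma adjusted p of 0.199. It was at 36.4, 47.3 and 38.3 in PFF and at 68.1, 69.4 and 59.9 in PFF+MLi-2, a difference of 0.98 ± 0.20. Ets1 region 21 was lower than in PFF, at 64.2, 28.7 and 56.6, which is -0.94 ± 0.30 against PFF (limma adjusted p = 0.325). Against PBS it then differed by -0.08 ± 0.31. Elf2 region 11, 660 bp upstream of a TSS, was at 86.3, 88.4 and 97.4 in PFF and at 60.3, 79.9 and 80.8 in PFF+MLi-2 (-0.88 ± 0.35, limma adjusted p = 0.388).

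PFF+Rab5 ASO vs PFF gave 3 gained and 1 lost region among 135 with a peak (2.22% and 0.741%), where 2.64% of all regions were gained and 1.94% lost. The lost region was Erg region 26. The gained regions were Ets1 region 9, described above, Ets1 region 22 and Fli1 region 12. Ets1 region 22 (chr9:32741058-32741296, intron) was at 35.3, 73.9 and 31.0 in the ASO libraries, absent from PFF, and present in 1 PBS library (60.4) and 1 PFF+MLi-2 library (30.2). The gains of Ets1 regions 9 and 22 were each kept in 1 of the 3 alternatives, that with equal numbers of top peaks. Fli1 region 12 (chr9:32489449-32489580), in an intron 52015 bp from the nearest TSS, was called in the 3 ASO libraries alone, at 39.4, 61.2 and 31.0 with 13, 15 and 12 fragments. Its call was kept with equal numbers of top peaks and with coverage of 50% of the region, and not at the stricter q.

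In height, 5 of the 45 ETS gene regions passed the limma test for PFF+Rab5 ASO vs PFF (11.1%, where 3.83% of all regions passed). One was higher (2.22%, against 1.97% of all) and 4 were lower (8.89%, against 1.86%). At an unadjusted p under 0.05 there were 17 (37.8%, against 21.1%), 7 higher and 10 lower. The median over the 45 was -0.08, beside 0.01 over all regions. The 5 lay in Ets1, Etv5 and Elf2. The count was 0 with percentiles in place of scores, and it dropped when any library was left out, to 2 without PFF replicate 1 or 2, to 1 without ASO replicate 2, and to 0 without PFF replicate 3 or ASO replicate 1 or 3. Over all 72465 regions the 2772 calls fell as well, to 233 with percentiles. They also fell without any 1 library, to the range given in the last section. With the replicate number as a block, 4 regions passed (2.31% of all regions did), all lower. These were Ets1 region 21, Etv5 region 12, Elf2 region 13 and Fli1 region 3. The last, in an intron, was at 66.0, 70.8 and 78.8 in PFF and at 17.9, 28.3 and 57.6 in the ASO libraries, and differed by -1.17 ± 0.22 with the block (limma adjusted p = 0.0432) and had a limma adjusted p of 0.0813 without it.

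Ets1 region 21 fell to 48.0, 39.3 and 31.0 in the ASO libraries from 73.7, 83.3 and 79.4 in PFF, with 14, 12 and 12 fragments against 18, 23 and 20. The difference was -1.38 ± 0.21 (SE, limma adjusted p = 0.0171), and the groups did not overlap. Against PBS the ASO libraries were at -0.52 ± 0.23 (limma adjusted p = 0.253). Ets1 region 21 was therefore highest in PFF, with each of the other 3 groups below it in every library. Of these differences only the one from PFF+Rab5 ASO passed the test. That call was lost without PFF replicate 3 (limma adjusted p = 0.0514), without ASO replicate 1 (0.0569) and without ASO replicate 3 (0.0589), at differences of -1.33 to -1.44.

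**Figure D4:**
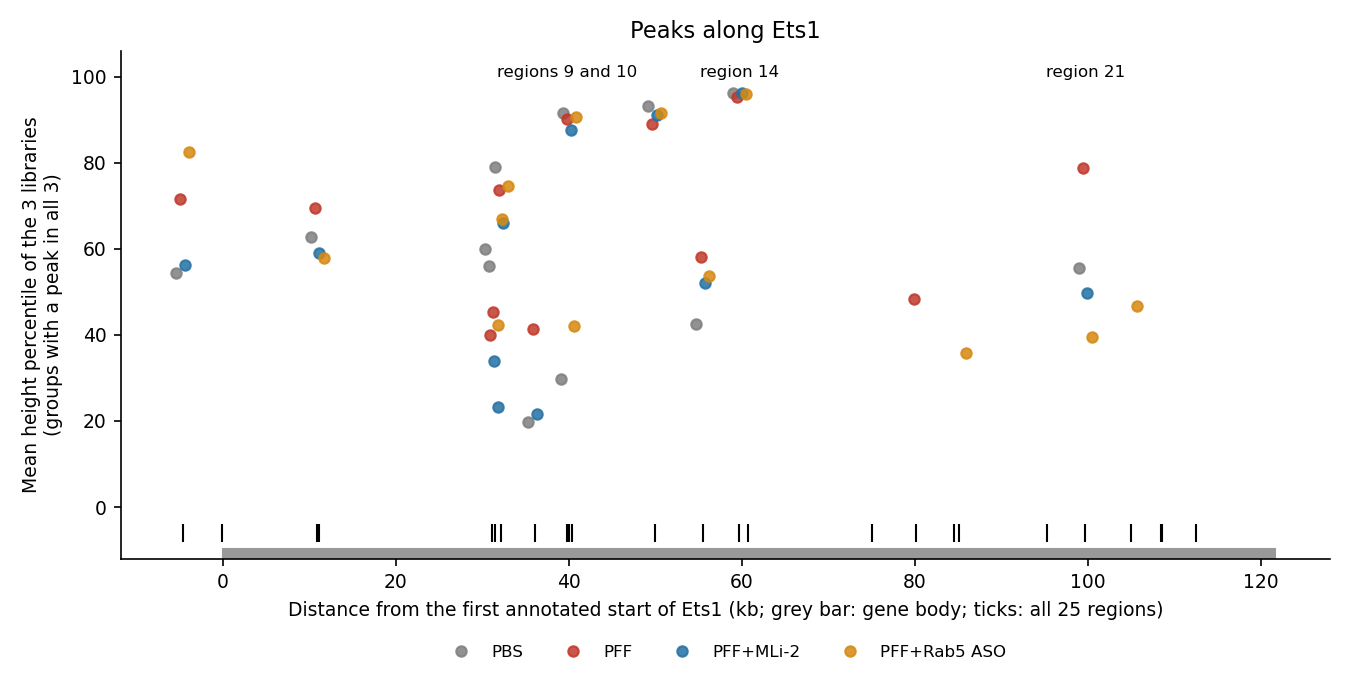
The 25 regions along Ets1, by distance from the first annotated start (horizontal axis, kb), with the mean height percentile of the 3 libraries of a group (vertical axis), shown only for groups with a peak in all 3. The grey bar is the gene body and ticks mark every region. At region 21 the PFF point (78.8) lies above PBS (55.6), PFF+MLi-2 (49.8) and PFF+Rab5 ASO (39.4), whereas the 4 points of the promoter region 14 lie together at 95.3 to 96.2.

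Etv5, a PEA3 factor that responds to growth factor signalling, held 3 of the 5 regions. Etv5 region 8 (chr16:22408715-22409003), the intronic stretch with the E-box match, was at 80.4, 63.6 and 64.2 in PBS and at 81.7, 73.3 and 60.7 in PFF. It was at 66.2, 57.0 and 58.3 in PFF+MLi-2 and fell to 24.7, 33.0 and 44.2 in PFF+Rab5 ASO, below all other libraries. The differences were -1.24 ± 0.26 from PFF (limma adjusted p = 0.0365) and -1.18 ± 0.25 from PBS (0.0475). With the replicate block the adjusted p by limma was 0.0639 and 0.0933. Etv5 region 12 (chr16:22422267-22422589, intron) was at 80.4, 73.4 and 74.3 in PFF and fell to 60.7, 16.2 and 19.2 in the ASO libraries (-1.42 ± 0.29, limma adjusted p = 0.0348), ASO replicate 1 standing well above the other two. It was at 76.3, 75.5 and 76.6 in PFF+MLi-2, level with PFF, and at 70.3, 53.7 and 76.2 in PBS. Neither call was kept without any 1 of the 6 libraries, with limma adjusted p of 0.0534 to 0.107 for region 8 and 0.0546 to 0.101 for region 12.

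Etv5 region 16 (chr16:22438461-22438705), 865 bp downstream of a TSS, was the region that rose. It was at 11.7, 28.3 and 7.6 in PFF and at 58.7, 53.1 and 38.6 in PFF+Rab5 ASO (1.04 ± 0.23, limma adjusted p = 0.0409), while PBS (21.4, 23.3 and 14.5) and PFF+MLi-2 (23.4, 23.5 and 8.9) were near PFF. In fragments the same peaks overlapped, at 34, 42 and 32 in PFF and 45, 40 and 35 in the ASO libraries. With the pileup, centred on each library's median, in place of the fold, the log2 difference was 0.14 (limma adjusted p = 0.494). The region thus passed by its fold over local background and not by the fragments at its summit. The call was kept in 1 of 6 fits without a library, that without PFF replicate 2, reached 0.115 without ASO replicate 1, and was lost with the replicate block (limma adjusted p = 0.0532). It was also lost over the regions common to the 6 libraries compared. Of the 6 alternatives that left out no library, 2 kept the call. The highest Etv5 region near a TSS, region 19, was at 88.2, 83.0 and 84.6 in PFF and at 88.6, 90.1 and 91.6 in the ASO libraries, a difference of 0.28 ± 0.20 (limma adjusted p = 0.460).

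Elf2 region 13 (chr3:51333335-51333587), an intronic region with the AP-1 match TGACTCA, had the largest difference. It was at 61.3, 92.6 and 92.4 in PFF and fell to 17.9, 28.3 and 41.7 in PFF+Rab5 ASO, a difference of -1.95 ± 0.43 (limma adjusted p = 0.0427). The spread was wide in the other groups, at 69.2, 56.2 and 83.7 in PBS and 54.6, 73.9 and 31.7 in PFF+MLi-2, and the ASO difference from PBS was -1.32 (limma adjusted p = 0.062). The call was kept in 1 of 6 fits without a library, that without PFF replicate 1, and reached an adjusted p of 0.125 without ASO replicate 1. Elf2 region 14, its neighbour in the same intron, had a peak in 3 PBS and 2 PFF libraries and in none of the 6 with MLi-2 or the ASO.

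Elf2 region 4 (chr3:51295301-51295705, intron) rose in the ASO libraries against PBS. It was at 89.0, 80.4 and 90.8 in PBS and at 98.0, 99.6 and 99.1 in PFF+Rab5 ASO, with 25, 20 and 25 fragments against 38, 44 and 38, a difference of 1.41 ± 0.25 (limma adjusted p = 0.0338). PFF stood between them at 95.2, 94.6 and 91.0, and the ASO difference from PFF of 0.93 ± 0.24 had a limma adjusted p of 0.0591. The call against PBS was not kept without any 1 of the 6 libraries (0.0563 to 0.0975) or with the replicate block (0.0761).

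**Figure D5:**
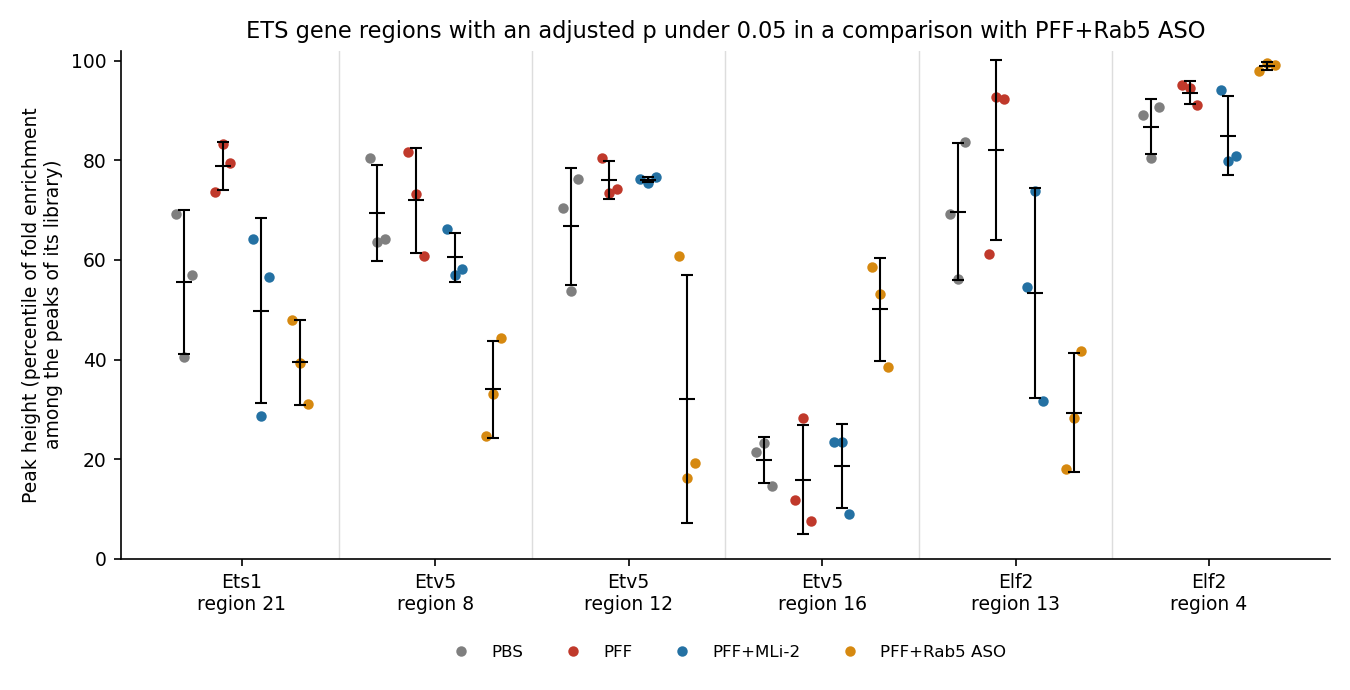
Height percentile within each library (vertical axis) of the 6 ETS gene regions with a limma adjusted p under 0.05 for PFF+Rab5 ASO against PFF or PBS (horizontal axis). Points are libraries coloured by group, and bars give the mean and SD (n = 3). Ets1 region 21, Etv5 regions 8 and 12 and Elf2 region 13 are low in the ASO libraries, and Etv5 region 16 and Elf2 region 4 are high.

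The 2 added treatments were last set against PBS. PFF+Rab5 ASO had 2 of 45 ETS gene regions past the limma test (4.44%, against 1.63% of all), 1 higher (2.22%, against 1.00%) and 1 lower (2.22%, against 0.631%), and 13 at an unadjusted p under 0.05 (28.9%, against 18.7%). Neither region passed with percentiles in place of scores, with the replicate block (0 of 45, and 0% of all regions) or without any 1 of the 6 libraries. Of 122 regions with a peak, 2 were gained (1.64%, against 2.59%), Erg region 2 and Fli1 region 12, and 2 were lost (1.64%, against 0.991%), Etv5 region 18 and Elf2 region 14. Etv5 region 18, near a TSS, was among the lowest peaks of the lists that held it, at 0.2 to 1.1, and Erg region 2 stood at 5.9, 10.3 and 27.2 in the ASO libraries and at 36.6 in 1 PFF library. PFF+MLi-2 against PBS had 0 of 45 past the test (0% of all) and 3 at an unadjusted p under 0.05 (6.67%, against 5.77%). Of 110 regions, 0 were gained (0.225% of all) and 3 were lost (2.73%, against 0.577%), Etv1 region 5, Etv5 region 11 and Elf2 region 14. The largest height differences without overlap were those of Ets1 region 6, an intronic region at 62.4, 53.2 and 52.4 in PBS and 26.1, 33.8 and 10.0 in PFF+MLi-2, and of Ets2 region 2, upstream of the gene, at 82.7, 75.6 and 80.5 in PBS and 94.4, 91.6 and 89.9 in PFF+MLi-2. Their limma adjusted p was 0.815 in both cases. The PFF libraries already lay on the same side of PBS in both regions, at 50.8, 48.2 and 37.2 in Ets1 region 6 and at 92.2, 87.6 and 92.2 in Ets2 region 2, and PFF+MLi-2 differed from PFF by -0.46 and 0.18 (limma adjusted p = 0.483 and 0.778). Ets1 region 5 differed by -0.68 (limma adjusted p = 0.842), at 34.1, 44.0 and 23.5 in PFF+MLi-2 against the PBS values given above. The comparisons share their PBS or PFF libraries and are not independent of each other.

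When the regions of a gene were averaged, no ETS gene passed the limma test for PFF against PBS, or for either added treatment against PFF (0 of 10 in each, against 0%, 0.00621% and 0.360% of 16098 genes). At an unadjusted p under 0.05 there were 0, 1 and 3 genes, where the background was 9.40%, 12.4% and 17.5%. The smallest adjusted p was 0.137, for Etv1 in PFF+Rab5 ASO vs PFF, whose mean score was higher by 0.39 ± 0.11. In that comparison 8 of 10 ETS genes had a lower mean, where 44.7% of all genes did, with a median of -0.16 beside 0.03 over all genes. Etv5 (10 regions) differed by -0.25 ± 0.11 and Erg (6 regions) by -0.26 ± 0.10. Measured by summit pileup in place of rank, Etv5 was the 1 ETS gene that passed, at a log2 difference of -0.39 ± 0.06 (limma adjusted p = 0.0137), where 3.85% of all genes passed. By pileup all 10 ETS genes were lower in PFF+Rab5 ASO, from -0.39 to -0.03 with a median of -0.13, where 69.3% of all genes were lower with a median of -0.06. Log2 pileups were centred on each library's median over the common regions, so these differences are not raw fragment ratios.

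Other genes of the family and pathway were counted in the same way. For 16 other ETS genes, among them Elf1, Elk3, Elk4 and Etv6, 38 regions were tested and 0 passed in these 3 comparisons, with 2, 6 and 7 at an unadjusted p under 0.05 (5.26%, 15.8% and 18.4%, against 9.72%, 11.4% and 21.1% of all regions). Of their 148 regions, 128, 125 and 133 had a peak in the libraries of the 3 comparisons, and shares are of these. In order, 1 was gained and 0 lost with PFF against PBS (0.781% gained, against 1.10%), and 0 were gained and 1 lost with MLi-2 against PFF (0.8% lost, against 1.64%). With the ASO against PFF, 2 were gained (1.5%, against 2.64%) and 7 lost (5.26%, against 1.94%). For 19 partners, kinases and target genes, such as Srf, Gabpb1, Dusp6, Spry2, Fos and Egr1, 78 regions were tested and 1 passed, a region of Map2k1, a MAP kinase kinase gene, that was higher in PFF+Rab5 ASO than in PFF (1.28% of the list, against 3.83% of all regions). At an unadjusted p under 0.05 there were 4 with PFF against PBS (5.13%, against 9.72%), 17 with MLi-2 against PFF (21.8%, against 11.4%) and 15 with the ASO against PFF (19.2%, against 21.1%). Of their 221 regions, 188, 182 and 195 had a peak in the libraries compared, and shares are again of these. In order, 0 were gained and 1 lost with PFF (0.532% lost, against 0.405%), 1 gained and 3 lost with MLi-2 (0.549% and 1.65%, against 0.374% and 1.64%) and 7 gained and 2 lost with the ASO (3.59% and 1.03%, against 2.64% and 1.94%). All 19 genes had a peak near a TSS in every library. Of the other ETS genes, 10 of 16 did, and Spi1, Spib and Spic, the blood cell group, had none in any library.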

How the data were processed

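ATAC-seq of 12 libraries, 3 in each of 4 groups, was analysed from 1 peak list per library, made by the authors by peak calling on each library alone. The submitters' processing notes name FastQC, Trim Galore 0.6.7, Bowtie2 2.5.1, MACS2 2.2.7.1 and GRCm38. Caller options, duplicate removal and any Tn5 shift are not given in the sources used here. The deposited fold enrichment (a ratio of summit pileup to local background) was the measure of height. The deposited −log10 p and −log10 q values served to recover the pileup in fragments and for the stricter q, and the deposited score equals 10 times −log10 q. A region without a peak holds nothing that passed the caller, and values below its threshold were not used. The free-text descriptions of the MLi-2 and Rab5 ASO libraries name PBS where titles and treatment labels say PFF, and the latter were followed.

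Peaks overlapping by 1 bp or more were merged, and regions were placed by GENCODE vM21 in the body or within 10 kb upstream of a TSS. "Near a TSS" means within 1 kb. Fold enrichment was ranked within each library over the 72465 regions common to all 12, turned into normal scores, and compared over the 6 libraries of a comparison with limma 3.58.1 in R 4.3.3, with Benjamini-Hochberg adjustment over all regions. Gene means were tested in the same way over 16098 genes. For tests on pileup, log2 pileups were centred on each library's median over the common regions. The scripts were tested on simulated data. The text names the highest region near a TSS of each gene, every region gained, lost or with an adjusted p under 0.05, and the largest differences without overlap. Other steps used Python 3.11.15, and figures matplotlib 3.10.9, with tables handled in pandas 2.3.3 and arrays in numpy 2.4.6 and scipy 1.17.1. The members and gene lists were chosen with earlier results of these data known, and the AP-1, CRE and E-box motifs were added to the planned ETS motif.

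Alternatives were percentiles or recovered pileup in place of scores, regions common to the 6 libraries compared, 1 fit over 12 libraries, a replicate block, equal numbers of top peaks (137417 per library), −log10 q of at least 5, coverage of 50% of a region, a peak in at least 2 of 3 libraries, 2 kb upstream in place of 10 kb, gene means over regions near a TSS alone, and leaving out each library. The study's methods treat each pregnancy as a replicate and divide its cultures among groups, without saying whether the replicate numbers of these libraries mark pregnancies, so values with the block are given wherever it changes a call.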

Additional observations from a re-analysis of the deposited data

How the results depend on the processing

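None of the single-region differences followed through the alternatives changed sign, but the balance of gained and lost regions did. For PFF vs PBS, the 2 regions gained or lost became 1 with equal numbers of top peaks, 1 at the stricter q, 11 when a peak in 2 of 3 libraries sufficed, 0 when peaks had to cover 50% of the region, and 2 to 5 without a replicate. For PFF+MLi-2 vs PFF the 3 became 11 with 2 of 3 libraries and 4 to 8 without a replicate. For PFF+Rab5 ASO vs PFF the 4 became 18 with 2 of 3 libraries, 7 with coverage and 5 to 11 without a replicate, where a complete split needs fewer libraries. The share over all regions moved as well. With 2 of 3 libraries 8.46%, 8.87% and 13.3% of members were gained or lost in the 3 comparisons, against 6.79%, 7.9% and 12.3% of all regions, and with coverage 0%, 1.71% and 5.34% against 2.09%, 2.97% and 5.84%. With equal numbers of top peaks these were 0.926%, 1.89% and 5.36% against 1.62%, 1.78% and 4.95%. At the stricter q they were 1.09%, 2.25% and 3.06% against 1.67%, 2.23% and 4.7%. Without a replicate, members ran from 1.54% to 4.13%, 3.28% to 6.96% and 3.73% to 8.8%. All regions then ran from 2.79% to 3.71%, 3.5% to 4.29% and 6.85% to 7.21%. The 3 gained and 1 lost of PFF+Rab5 ASO vs PFF became 8 and 10 with 2 of 3 libraries, 2 and 5 with coverage, and 5 and 6 without PFF replicate 3. The 0 and 3 of PFF+MLi-2 vs PFF became 1 and 1 with equal numbers of top peaks, at the stricter q and with coverage. The 5 regions called by limma for PFF+Rab5 ASO vs PFF became 0 on the percentile scale, 2 with equal numbers of top peaks, 7 with pileup and 0 to 2 without a replicate. The 2 called against PBS became 0 with percentiles, 9 with pileup, 3 in 1 fit over 12 libraries, 1 with equal numbers of top peaks and 0 without any replicate. For genes in PFF+Rab5 ASO vs PFF the 0 called became 1 with pileup. With equal numbers of top peaks 40 of the 45 regions were tested, and Etv5 regions 8 and 12 and Elf2 region 13 were no longer among them, so that their calls were not made because they left the test. Ets1 region 21 and Etv5 region 16 against PFF and Elf2 region 4 against PBS stayed called. The cause of the other moves was not tested. With the replicate block, 4 regions were called for PFF+Rab5 ASO vs PFF and 0 against PBS. Same-numbered libraries correlated in their deviations from group means at 0.005 to 0.0788, all under 0.1. The same number was the best match in each of the 15 cases, which reuse the same 12 libraries and are not independent. Whether same-numbered libraries are paired was not tested, and the main limma test did not use the replicate number. Values with the block stand beside the region calls it changes. Over all regions, the 2772 called for PFF+Rab5 ASO vs PFF became 233 with percentiles, 6055 with pileup and 0 to 995 without a replicate. The 1184 called against PBS became 0 with percentiles and 5056 with pileup. Weak peaks of 10 to 15 fragments lie close to the calling threshold, and depth limits what a missing peak can show.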
